A study of Mus musculus with 27 samples.

Results

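The integrated stress response is represented here by 9 genes, Atf4, Atf5, Ddit3, Trib3, Chac1, Asns, Psat1, Phgdh and Slc7a11, which were picked by symbol from the 24065 genes of an RNA-Seq count table. All 9 were found in the table and all 9 had enough counts to be tested. The RNA came from whole C57BL/6J embryos at embryonic day (E) 8.5, 3 of them WT and 3 Dnmt3b-/-, with 1 library per embryo and no treatment. Dnmt3b encodes a de novo DNA methyltransferase, and the Dnmt3b-/- embryos are homozygous for a catalytically inactive allele that was made by crossing a floxed line with an ACTB-Cre deleter, so that every cell of the embryo carries it. The embryos came from intercrosses of heterozygous mice, and the WT embryos were littermates. The question asked of these genes is whether their transcript levels differ between the genotypes.

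In the integrated stress response, kinases that sense amino acid shortage, unfolded protein in the endoplasmic reticulum (ER), double-stranded RNA or heme shortage phosphorylate the translation factor eIF2α. General protein synthesis then slows while the mRNA of the transcription factor ATF4 is translated more, because short upstream reading frames hold it back in unstressed cells. ATF4 binds C/EBP-ATF response elements (CAREs) and raises the transcription of genes for amino acid synthesis, amino acid uptake, tRNA charging and feedback control. Transcript counts do not show ATF4 protein or eIF2α phosphorylation, and neither was measured in these libraries.

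The 9 genes fall into 3 roles. Atf4, Atf5 and Ddit3 (which encodes CHOP) are the transcription factors. Trib3, a pseudokinase that restrains ATF4 and CHOP, and Chac1, an enzyme that degrades glutathione, are targets that are low in most unstressed tissues. Asns (asparagine synthetase), Phgdh and Psat1 (the first enzymes of serine synthesis) and Slc7a11 (the cystine and glutamate exchanger xCT) are the metabolic targets.

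The start regions of the genes are shown because the letters of the CARE separate the members into 2 sets. RefSeq promoter windows on GRCm38.p6 run from 250 bases before the first transcribed base to 50 bases from it on, and the first transcribed base is counted as position 1. The letters TGATGNAA, read on both strands, were found for 4 of the 9 genes (44.4%), beside 4.51% of all 27025 genes with a window. Some genes have more than 1 window, and per window the shares were 4 of 11 for the members and 3.97% of all 32851. The 4 genes are Slc7a11, with one match at -66 to -59 and another at -47 to -40, Asns at -23 to -16, Chac1 at -193 to -186 and Trib3 at 15 to 22. The matches stand in capitals in the stretches printed here, which read 5′ to 3′ along the strand of each gene.
Slc7a11 (chr3:50443634-50443703, minus strand): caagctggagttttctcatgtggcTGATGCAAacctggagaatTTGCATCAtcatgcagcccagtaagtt
Asns (chr6:7693210-7693269, minus strand): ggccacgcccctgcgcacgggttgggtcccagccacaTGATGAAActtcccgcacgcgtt
Chac1 (chr2:119351023-119351082, plus strand): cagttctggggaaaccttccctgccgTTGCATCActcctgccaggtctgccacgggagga
Trib3 (chr2:152344028-152344057, minus strand, transcribed): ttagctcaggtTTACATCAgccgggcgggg
Phgdh, the member with the smallest adjusted p, had no match in its window, and the 100 bases before its start are given for comparison.
Phgdh (chr3:98339970-98340069, minus strand): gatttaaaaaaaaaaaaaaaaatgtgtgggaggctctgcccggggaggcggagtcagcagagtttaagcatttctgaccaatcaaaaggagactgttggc
A match in these letters is not evidence of binding, and a window without them can hold other forms of the element. The palindromic cyclic AMP response element TGACGTCA, which does not contain the CARE letters, was in 0 of the 11 windows of the 9 genes and in 1.79% of all windows.

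The libraries held between 41489332 and 58470286 counts on genes. Dnmt3b itself had 9197, 12195 and 7120 raw counts in WT embryos 1, 2 and 3 and 4068, 3904 and 4196 in the Dnmt3b-/- embryos, a log2 fold change of -1.04 ± 0.27 (SE, adjusted p = 0.0169, edgeR quasi-likelihood test). These counts cover the whole gene, so they do not show the deleted part of the allele. Without WT embryo 2 the value was -0.61, and leaving out Dnmt3b-/- embryo 1, 2 or 3 gave adjusted p-values of 0.0555 to 0.0613 (edgeR). WT embryo 2 stood apart from the other WT embryos. The summed normalized count of 8 extraembryonic endoderm markers (Afp, Ttr, Apoa1, Apob, Amn, Cubn, Rbp4 and Hnf4a) was 178151 in it and 20240 and 55926 in the others, and 11104 to 40022 in the Dnmt3b-/- embryos. Of these 8 genes, 1 passed the edgeR test (Amn, lower), and all 8 had a negative log2 fold change. The number lower was 2 in DESeq2, 0 in limma-voom and 3 at an unadjusted edgeR p of 0.05. The median log2 fold change was -1.30, and without WT embryo 2 it was -0.34 and 0 genes passed (edgeR). The sum of 7 primitive erythroid markers was lowest in the same embryo, at 12193, against 45812 and 67926 in the other WT embryos and 15389 to 43785 in the Dnmt3b-/- embryos. With all embryos 0 of 7 passed in edgeR, DESeq2 or limma-voom, or at an unadjusted edgeR p of 0.05 (median log2 fold change -0.33), and without WT embryo 2 the edgeR fit had 1 of 7 lower (median -0.86). By the same test with no filter on fold, 2 of 8 neural tube markers were higher and 2 lower, 1 of 7 somite and presomitic mesoderm markers was higher, and 1 of 7 heart markers was higher and 2 lower, where 17.6% of all genes were higher and 18.1% lower. For the heart list the number lower was 4 without WT embryo 2 (median -0.73 in place of -0.35) and 0 with a correction for GC content and exon length. Of 9 trophoblast and decidua markers, 4 could be tested and 0 passed in edgeR, DESeq2 or limma-voom, or at an unadjusted edgeR p of 0.05, and Prl3d1, Tpbpa, Prl8a2 and Prl3c1 had 0 counts in every embryo. In whole embryos, fewer cells of a type and less RNA per cell cannot be told apart. Y-linked transcripts were present in 1 of 3 WT and 2 of 3 Dnmt3b-/- embryos, and the part of sex in the results was not tested.

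In Dnmt3b-/- embryos Phgdh, Trib3 and Atf4 were lower than in WT embryos, and Asns was higher. Phgdh fell by 0.81, Trib3 by 1.34 and Atf4 by 0.39 on the log2 scale, and Asns rose by 0.24. Chac1 had the most negative log2 fold change of the 9 genes and missed the threshold, at an adjusted p of 0.0528 by edgeR. Atf5, Ddit3, Psat1 and Slc7a11 did not pass and their groups overlapped. Thus 4 of 9 genes (44.4%) passed an adjusted p of 0.05, of which 1 was higher and 3 were lower, against a background of 35.7% of the 15114 genes tested, 17.6% higher and 18.1% lower. With a fold change above 2 added, 1 gene passed (Trib3, lower), where 5.9% of all genes passed, 2.12% as higher and 3.78% as lower. The values of the 2 genotypes did not overlap for 5 of the 9 genes, 4 below WT and 1 above, and for 51.8% of all genes, 26.5% below and 25.3% above. The median log2 fold change of the 9 genes was -0.11, beside -0.03 over all tested genes. Without WT embryo 2, Asns passed as higher and Atf4 and Phgdh as lower, where 17.0% of all genes were higher and 17.6% lower, and Trib3 had an adjusted p of 0.0839 (edgeR).

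**Figure D1:**
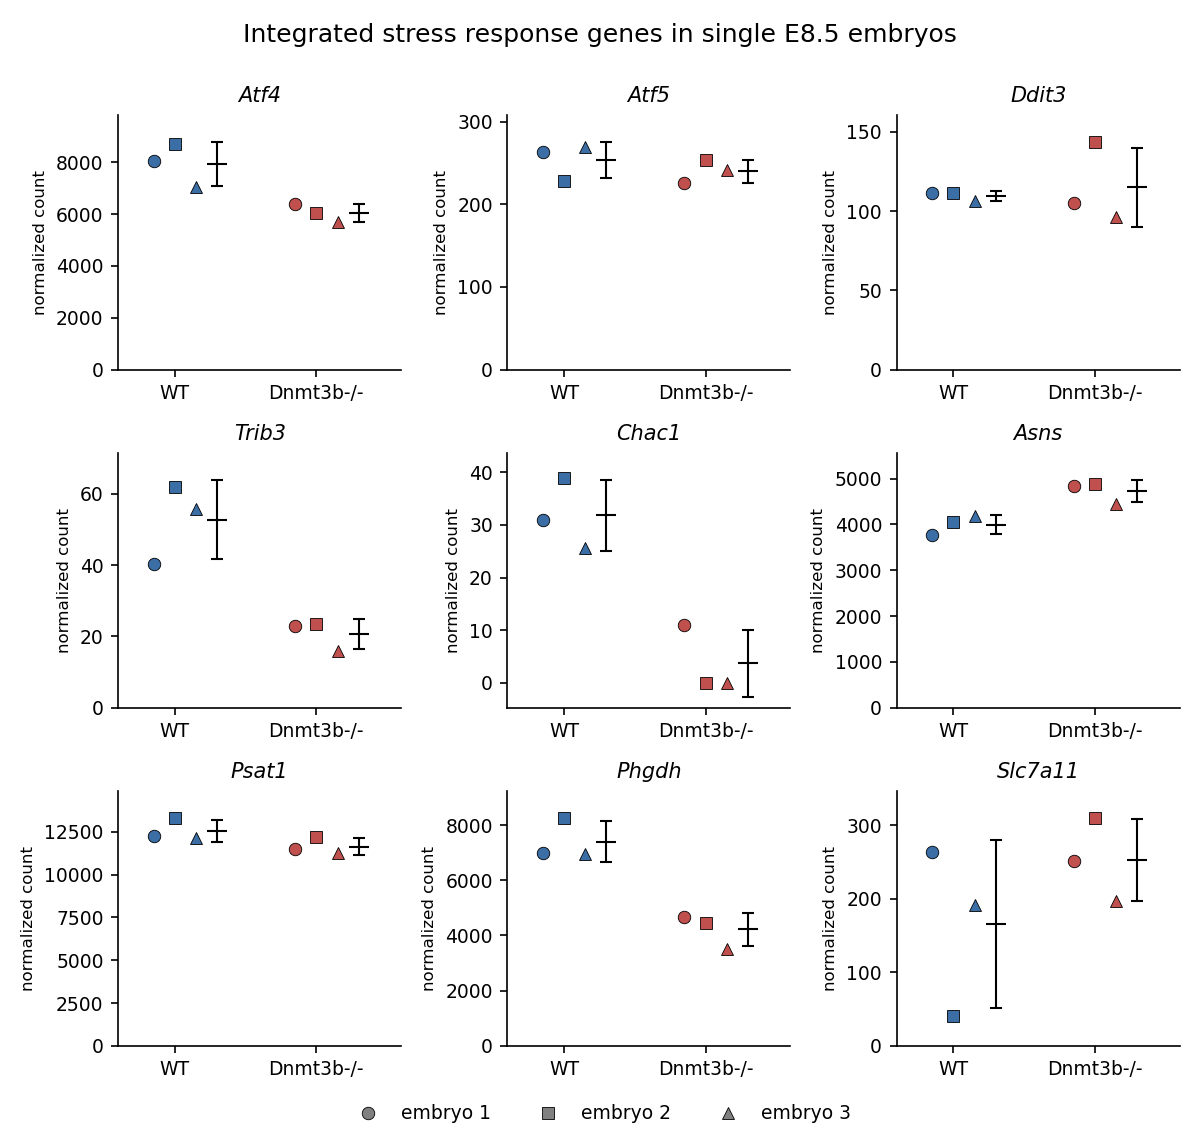
Normalized counts of the 9 genes in each E8.5 embryo (vertical axes, 1 panel per gene, starting at 0 except for Chac1, whose error bar reaches below 0), with WT embryos in blue, Dnmt3b-/- embryos in red, and circle, square and triangle for embryos 1, 2 and 3. The bars give the mean and SD of 3 embryos; the groups are separated for Atf4, Trib3, Chac1, Asns and Phgdh, and WT embryo 2 lies far below the others for Slc7a11.

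The levels of the 9 genes differed widely in WT embryos. In FPKM, the count divided by exon length and by the total of the library, the mean level was 107.6 ± 3.97 (SD, n = 3) for Psat1, 97.9 ± 9.55 for Atf4, 84.2 ± 7.23 for Phgdh and 43.4 ± 2.08 for Asns. Atf5 and Ddit3 followed at 2.72 ± 0.27 and 2.69 ± 0.08 FPKM. Trib3 (0.547 ± 0.109 FPKM), Chac1 (0.433 ± 0.086) and Slc7a11 (0.384 ± 0.268) were the least abundant, and the Slc7a11 value uses an exon length of 9227 bp. The ranges of Psat1 and Atf4 overlapped, as did those of Atf4 and Phgdh, of Atf5 and Ddit3, and of the 3 lowest genes. In every WT embryo Psat1, Atf4 and Phgdh had at least 79.4 FPKM, while Asns stayed between 41.4 and 45.6 FPKM.

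Atf4 (chromosome 15, 80255184 to 80257545, plus strand, 3 exons, mm10) encodes the central activator of the response. Its normalized counts were 8062, 8714 and 7051 in WT embryos 1, 2 and 3 and 6402, 6025 and 5693 in Dnmt3b-/- embryos 1, 2 and 3. Every Dnmt3b-/- embryo lay below every WT embryo. The means were 7942 ± 838 and 6040 ± 355 (SD, n = 3), a log2 fold change of -0.39 ± 0.09 (SE, adjusted p = 0.0116, edgeR). Atf4 passed in 11 of 14 alternative settings. It missed the threshold without Dnmt3b-/- embryo 2 (adjusted p = 0.0508, edgeR) and without Dnmt3b-/- embryo 3 (0.0543, edgeR).

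Atf5 (chromosome 7, 44812256 to 44816658, minus strand) encodes a relative of ATF4 that is also under translational control and serves mitochondrial stress. It had 263.1, 228.5 and 269.0 normalized counts in WT embryos and 225.5, 253.3 and 241.4 in Dnmt3b-/- embryos, so that the groups overlapped. Its log2 fold change was -0.08 ± 0.17 (SE, adjusted p = 0.745, edgeR), with an interval of 2 standard errors from -0.42 to 0.26.

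Ddit3 (chromosome 10, 127290793 to 127296291, plus strand) encodes CHOP, which promotes cell death under lasting stress. The WT embryos were close together, at 111.7, 111.4 and 106.2 normalized counts, and the Dnmt3b-/- embryos had 105.2, 143.6 and 96.3. Dnmt3b-/- embryo 2 was the highest of all 6 and the other 2 mutants lay below all WT embryos. Dnmt3b-/- over WT gave a log2 fold change of 0.07 ± 0.25 (SE, adjusted p = 0.857, edgeR), with an interval from -0.43 to 0.57, and its sign changed with scaling to total counts. In RefSeq, Atf5 shares 82 bp of exon with Nup62 on the other strand, and Ddit3 shares 77 bp with Mbd6 and 68 bp with Mars. Whether the counting used the strand is not given in the sources used here, so reads in these stretches cannot be assigned with certainty.

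Trib3 (chromosome 2, 152337425 to 152344060, minus strand), with the CARE letters in its first transcribed bases, had few reads in every embryo. Its raw counts were 51, 54 and 63 in WT embryos and 23, 20 and 14 in Dnmt3b-/- embryos, which are 40.4, 62.0 and 55.8 against 23.0, 23.3 and 15.9 normalized counts. The groups did not overlap, and the WT mean was 2.54 times the Dnmt3b-/- mean. The log2 fold change was -1.34 ± 0.39 (SE, adjusted p = 0.0302, edgeR). With each embryo left out in turn it stayed between -1.50 and -1.16, but passed in only 1 of the 6 fits, that without Dnmt3b-/- embryo 1, with adjusted p-values from 0.0498 to 0.0964 (edgeR).

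Chac1 (chromosome 2, 119351242 to 119354326, plus strand) had even fewer reads. The raw counts were 39, 34 and 29 in WT embryos and 11, 0 and 0 in Dnmt3b-/- embryos, or 30.9, 39.0 and 25.7 against 11.0, 0 and 0 normalized counts. All 3 Dnmt3b-/- embryos were below the WT embryos, but embryo 1 kept 11 reads where the other 2 had none. A count of 0 allows up to 3 counts, which equals 3.5 normalized counts in embryo 2 and 3.4 in embryo 3, for counting error only. The log2 fold change was -3.00 ± 1.04 (SE, adjusted p = 0.0528, edgeR), beside an adjusted p of 0.0288 in DESeq2 and 0.0115 in limma-voom. With all embryos the WT mean was 8.67 times the Dnmt3b-/- mean. Without Dnmt3b-/- embryo 1, the WT mean of 31.9 was 9.24 times the mean limit per library of 3.45. That value leaves out the spread of the WT embryos. The fit without Dnmt3b-/- embryo 1 gave an adjusted p of 0.0043 (edgeR). The other 5 fits without 1 embryo did not pass, with adjusted p-values from 0.0817 to 0.119 (edgeR). Chac1 passed in 3 of the 13 alternative settings that tested it.

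Asns (chromosome 6, 7675165 to 7693209, minus strand), which makes asparagine from aspartate and glutamine, moved the other way. WT embryos had 3762, 4042 and 4174 normalized counts and Dnmt3b-/- embryos 4843, 4880 and 4448. Every Dnmt3b-/- embryo was above every WT embryo, although embryo 3 was close to WT embryo 3. The log2 fold change was 0.24 ± 0.07 (SE, adjusted p = 0.0307, edgeR), and it remained positive in all 14 alternative settings but passed in 8 of them. It missed the threshold without WT embryo 1 (adjusted p = 0.13, edgeR), without Dnmt3b-/- embryo 1 (0.0518) and without Dnmt3b-/- embryo 2 (0.123). With scaling to total counts it was 0.17 (adjusted p = 0.132, edgeR).

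Phgdh (chromosome 3, 98313171 to 98339969, minus strand), which takes glycolytic carbon into serine synthesis, had 6996, 8248 and 6943 normalized counts in WT embryos and 4683, 4444 and 3523 in Dnmt3b-/- embryos. The lowest WT embryo was far above the highest mutant embryo. The means were 7395 ± 739 and 4217 ± 613 (SD, n = 3), a log2 fold change of -0.81 ± 0.12 (SE, adjusted p = 0.00183, edgeR). Phgdh is the only one of the 9 genes that passed in all 14 alternative settings, with values from -0.88 to -0.37. RefSeq also lists a Phgdh pseudogene, and the sources used here do not say how reads shared with it were treated.

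Psat1 (chromosome 19, 15905123 to 15925059, minus strand) encodes the next enzyme of the same route and differed little between the genotypes. It had 12258, 13298 and 12160 normalized counts in WT embryos and 11495, 12176 and 11255 in Dnmt3b-/- embryos. The mutants lay at the lower end of an overlapping range. Its log2 fold change was -0.11 ± 0.07 (SE, adjusted p = 0.256, edgeR), with an interval from -0.25 to 0.03. The ratio of Phgdh to Psat1 raw counts was 0.571, 0.620 and 0.571 in WT embryos and 0.407, 0.365 and 0.313 in Dnmt3b-/- embryos. These ratios did not overlap, and a two-sided exact permutation test gave p = 0.1 (adjusted p = 0.133 over 4 ratios), the smallest value that 3 embryos against 3 can give. The ratios are not corrected for exonic GC content, which is 57.4% for Phgdh and 50.3% for Psat1. With a correction for GC content and exon length the log2 fold changes were closer, at -0.37 for Phgdh and -0.10 for Psat1.

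Slc7a11 (chromosome 3, 50364936 to 50499087, minus strand), with its pair of CARE matches, was the most variable of the 9 genes among WT embryos. The WT embryos had 263.9, 40.2 and 191.2 normalized counts and the Dnmt3b-/- embryos 251.5, 309.3 and 197.2. WT embryo 2 had the lowest value by far, and WT embryos 1 and 3 lay in or next to the mutant range. The log2 fold change was 0.60 ± 0.54 (SE, adjusted p = 0.42, edgeR), and it was 0.15 without WT embryo 2 (adjusted p = 0.691, edgeR). WT embryo 2 is also the embryo with the highest extraembryonic endoderm sum and the lowest erythroid and neural tube sums (14320 for the neural tube list, against 18818 to 21058 in the other 5 embryos). Their part in the Slc7a11 value was not tested.

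**Figure D2:**
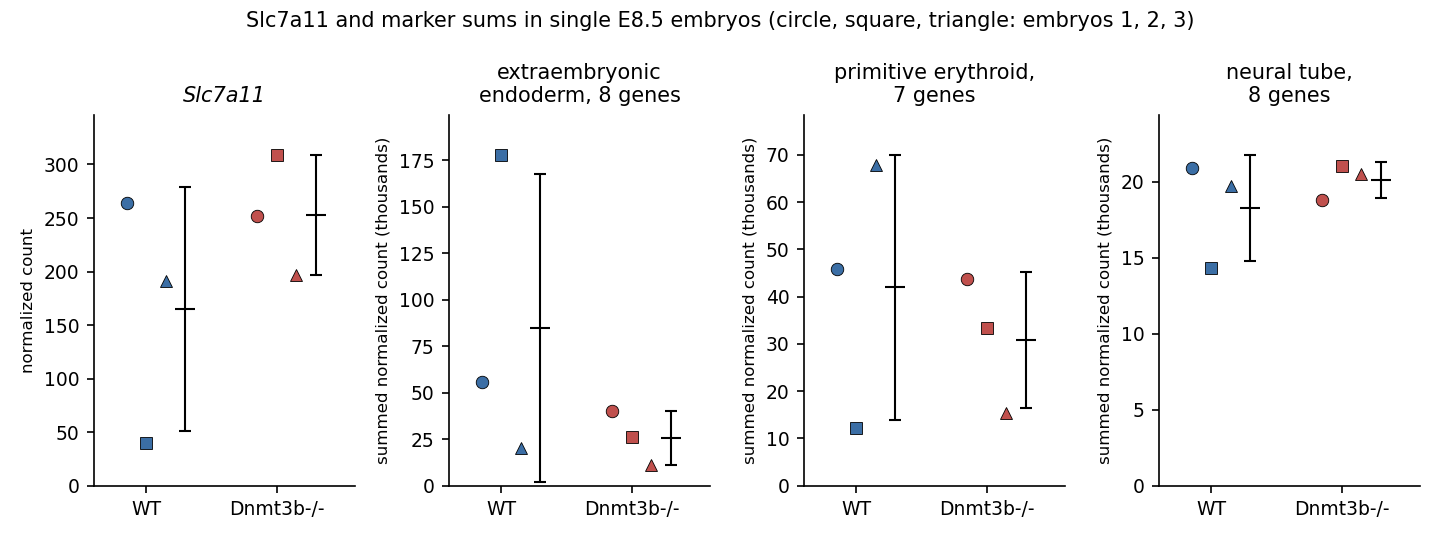
Normalized count of Slc7a11 (left) and summed normalized counts of extraembryonic endoderm, primitive erythroid and neural tube markers (vertical axes from 0) in WT (blue) and Dnmt3b-/- (red) embryos 1, 2 and 3 (circle, square, triangle), with the mean and SD of 3 embryos. WT embryo 2 is lowest for Slc7a11, the erythroid sum and the neural tube sum and highest for the endoderm sum.

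The other ratios within the response were taken against Atf4, from raw counts. Asns to Atf4 was 0.467, 0.464 and 0.592 in WT embryos and 0.756, 0.810 and 0.781 in Dnmt3b-/- embryos. Trib3 to Atf4 was 0.00501, 0.00712 and 0.00791 in WT embryos and 0.00360, 0.00387 and 0.00279 in Dnmt3b-/- embryos. Neither ratio overlapped between the genotypes (p = 0.1 each, exact permutation test, adjusted p = 0.133). For Asns to Atf4 this had to follow, because every mutant embryo lay above every WT embryo for Asns and below for Atf4. That ratio therefore adds nothing to the separate results of Asns and Atf4. These ratios are not corrected for GC content.

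The genes with lower counts in Dnmt3b-/- embryos were richer in GC over all tested genes. The median exonic GC content was 55.7% for genes that passed as lower, 45.0% for those that passed as higher and 50.3% for all tested genes. Among the 9 genes, Slc7a11 (40.7%), Asns (48.5%) and Psat1 (50.3%) had the lowest exonic GC content and Atf5 (60.2%), Trib3 (58.2%), Chac1 (57.7%) and Phgdh (57.4%) the highest, with Atf4 (54.1%) and Ddit3 (55.3%) between them. When GC content and exon length were corrected in each library, Phgdh still passed at a log2 fold change of -0.37 ± 0.09 (SE, adjusted p = 0.0219, edgeR), and it was the only one of the 9 to do so, where 11.0% of all genes passed as lower and 12.5% as higher. With this correction Atf4 was at -0.17 (adjusted p = 0.188, edgeR), Trib3 at -0.86 (0.141), Chac1 at -2.61 (0.0966) and Asns at 0.16 (0.107). Atf5 turned from -0.08 to 0.51 (adjusted p = 0.077, edgeR), and Ddit3 was at 0.41 (0.269).

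**Figure D3:**
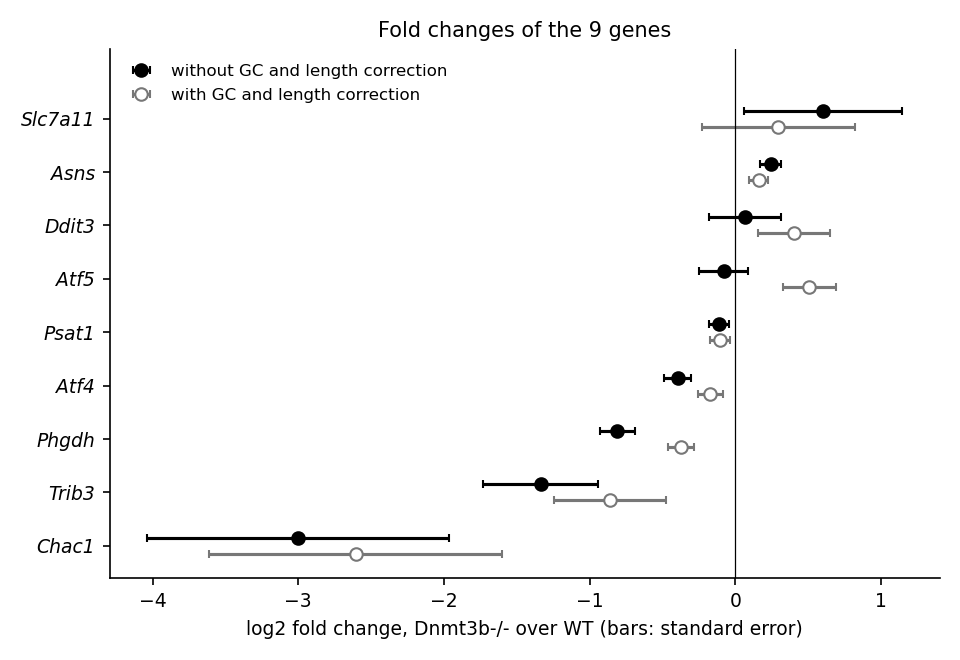
Log2 fold changes of the 9 genes in Dnmt3b-/- over WT embryos (horizontal axis, bars are standard errors), without (filled black) and with (open grey) a correction for exonic GC content and length. The correction moved Phgdh from -0.81 to -0.37, Atf4 from -0.39 to -0.17 and Atf5 from -0.08 to 0.51, while Chac1 and Trib3 remained the most negative.

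The other genes of the pathway were taken from 9 lists by role, with 103 genes in all. Their counts are to be read beside the 17.6% of all tested genes that were higher and the 18.1% that were lower, 35.7% together. The enzymes that work beside Phgdh and Psat1 in serine, glycine, one-carbon and proline metabolism were counted first. At an adjusted p of 0.05 in edgeR, 5 of 10 were lower and 0 were higher, with a median log2 fold change of -0.41. At an unadjusted p of 0.05 the counts were 7 lower and 0 higher, and in DESeq2 5 and 0. Psph, the last enzyme of serine synthesis, had 938.9, 1699 and 928.3 normalized counts in WT embryos and 697.4, 641.9 and 477.2 in mutants, a log2 fold change of -0.97 ± 0.26 (SE, adjusted p = 0.0191, edgeR). WT embryo 2 was again the outlying value, and without it Psph was at -0.62. The ratio of Phgdh to Psph counts overlapped between the genotypes (exact permutation p = 1).

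Both serine hydroxymethyltransferases, which pass a carbon from serine to folate, were lower. The mitochondrial enzyme Shmt2 had 5156, 4493 and 5240 normalized counts in WT embryos and 2798, 2521 and 2295 in mutants (log2 fold change -0.97 ± 0.10, SE, adjusted p = 0.000593, edgeR). The cytosolic enzyme Shmt1 had 4006, 4305 and 4338 in WT embryos and 2993, 2722 and 2591 in mutants (-0.61 ± 0.08, adjusted p = 0.0011, edgeR). Neither gene overlapped between the genotypes, and both passed in all 6 fits without 1 embryo. Of the folate enzymes, Mthfd1 was at -0.49 (adjusted p = 0.00268, edgeR) and its mitochondrial relative Mthfd2, a well-known ATF4 target, at -0.33 (0.0178). The counts for the list were the same, 5 lower and 0 higher, without WT embryo 2 and with the GC and length correction, where the median was -0.31. CARE letters were found for 1 of the 9 genes of this list that have a promoter window.

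**Figure D4:**
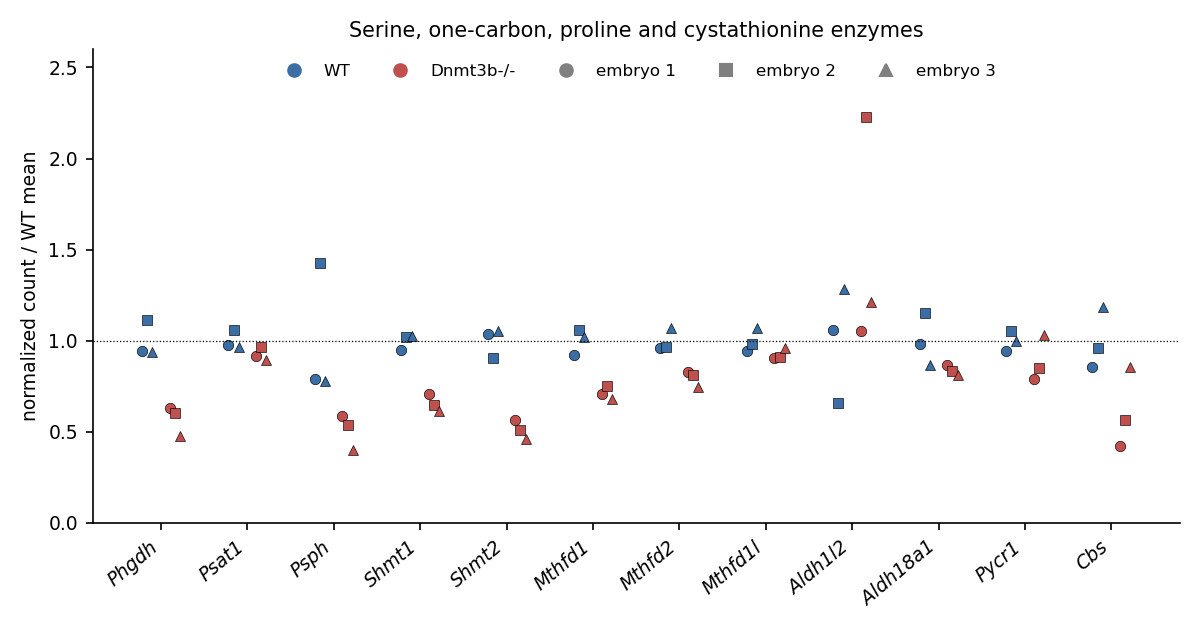
Normalized count of Phgdh, Psat1 and the 10 other enzymes of serine, one-carbon, proline and cystathionine metabolism in each embryo, divided by the mean of the 3 WT embryos of that gene (vertical axis from 0, dotted line at 1), with WT in blue, Dnmt3b-/- in red and circle, square and triangle for embryos 1, 2 and 3. Phgdh, Psph, Shmt1, Shmt2, Mthfd1 and Mthfd2 have all 3 mutant embryos below all WT embryos, and Psat1 does not.

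The next list holds the eIF2α kinases, the phosphatase subunits, eIF2α itself and the exchange factor eIF2B. Of its 12 genes, 1 was higher, 2 were lower and 9 did not pass (25.0% passed, below the 35.7% of all genes), with a median log2 fold change of 0.01. Eif2ak1 encodes HRI, the kinase that responds to heme shortage and mitochondrial stress, and had 2323, 2210 and 2183 normalized counts in WT embryos and 3478, 3870 and 4084 in Dnmt3b-/- embryos. All mutants were above all WT embryos (log2 fold change 0.77 ± 0.08, SE, adjusted p = 0.000697, edgeR). The phosphatase subunits that reverse the phosphorylation were lower. Ppp1r15a (GADD34), the inducible subunit and itself an ATF4 target, had 1212, 1477 and 1303 normalized counts in WT embryos and 766.6, 749.3 and 734.4 in mutants (-0.83 ± 0.11, adjusted p = 0.00128, edgeR). The window of Ppp1r15a holds the letters TGACGTCA at -12 to -5. Ppp1r15b (CReP), the constitutive subunit, was at -0.28 (adjusted p = 0.00825, edgeR), and Eif2s1, the gene for eIF2α itself and the most abundant of the list, was at 0.03 (0.775). With the GC and length correction Eif2s1 was at -0.44 (adjusted p = 0.0027, edgeR), so its value depends on that choice.

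Of 15 other regulators and targets of ATF4, 13 could be tested, and 2 were higher and 3 lower (38.5% passed, beside 35.7% of all genes). The median was -0.34, but -0.07 without WT embryo 2 and 0.06 with the GC and length correction, so its direction depends on that choice. Eif4ebp1, a repressor of cap-dependent translation, had 3515, 3618 and 3394 normalized counts in WT embryos and 2237, 1771 and 1705 in mutants (log2 fold change -0.88 ± 0.11, SE, adjusted p = 0.00107, edgeR). Slc3a2, the heavy chain that partners xCT in the membrane, was at -0.53 (0.0181) and had the highest normalized count of the list, though not the highest FPKM. Cth, which makes cysteine from cystathionine, was at -0.36 (0.0273). The 2 that were higher were Stc2, a secreted glycoprotein, at 0.66 (adjusted p = 0.0361, edgeR, passing in 1 of the 6 fits without 1 embryo), and Nupr1, a small stress-induced chromatin protein, at 2.51 (0.0335). Nupr1 was low in all embryos, at 0.8, 8.0 and 5.3 normalized counts in WT and 38.1, 15.2 and 24.9 in Dnmt3b-/- embryos, and passed in 2 of the 5 fits without 1 embryo that could test it. Gdf15 and Fgf21, secreted markers of the response, had too few counts to be tested.

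Amino acid transporters other than Slc7a11 were lower in 4 of 10 cases and higher in 0 (edgeR, and likewise at an unadjusted p of 0.05 and in DESeq2), with a median of -0.24, where 35.7% of all genes passed. The number lower was 3 in limma-voom and 3 without WT embryo 2. With the GC and length correction 1 was higher and 2 lower, with a median of -0.03. Slc7a3, a cationic amino acid transporter, had 139.5, 401.9 and 114.2 normalized counts in WT embryos and 74.2, 81.7 and 92.9 in mutants (log2 fold change -1.39, adjusted p = 0.048, edgeR). WT embryo 2 carried the highest value, and without it the log2 fold change was -0.61 (adjusted p = 0.129, edgeR). Slc7a6 was at -0.47 (0.00354), the glutamine transporter Slc1a5 at -0.67 (0.0206) and the leucine transporter Slc7a5 at -0.25 (0.0357, passing in 0 of the 6 fits without 1 embryo). With the GC and length correction Slc7a6 was at -0.48 (adjusted p = 0.00353, edgeR) and Slc7a3 at -1.41 (0.0571). Slc1a5 was then at -0.27 (0.276), and Slc7a5 changed sign to 0.15 (0.262). Slc38a2, the most abundant of the list and an ATF4 target, was at -0.00 (0.979) without this correction. With it Slc38a2 was at -0.27 (adjusted p = 0.0432, edgeR), so its value depends on that choice.

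Of the aminoacyl-tRNA synthetases that ATF4 is known to induce, 4 of 12 were higher and 5 lower, with a median of 0.08, where 17.6% of all genes were higher and 18.1% lower. Sars, which charges serine tRNA, had 7668, 8244 and 8172 normalized counts in WT embryos and 10940, 12047 and 13100 in mutants (log2 fold change 0.58 ± 0.08, SE, adjusted p = 0.00163, edgeR). Mars, which charges methionine tRNA and shares exon sequence with Ddit3, had 6134, 6881 and 6449 in WT embryos and 4465, 4206 and 3856 in mutants (-0.64 ± 0.08, adjusted p = 0.00108, edgeR). Nars was at 0.39, Wars at -0.45, Yars at -0.42 and Lars at -0.34, and Eprs, the most abundant, at 0.18 (adjusted p = 0.0989, edgeR). CARE letters were found in 5 of the 8 genes of this list that have a window. Of 8 other cytosolic synthetases, which are not known for this control, 2 were higher (Rars at 0.30 and Farsb at 0.29) and 3 lower (Vars at -0.83, Farsa at -0.49 and Kars, the most abundant, at -0.23). The 5 of 8 that passed stand beside 35.7% of all genes. With the GC and length correction the split was 2 higher and 4 lower for the first list and 0 higher and 1 lower for the second.

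**Figure D5:**
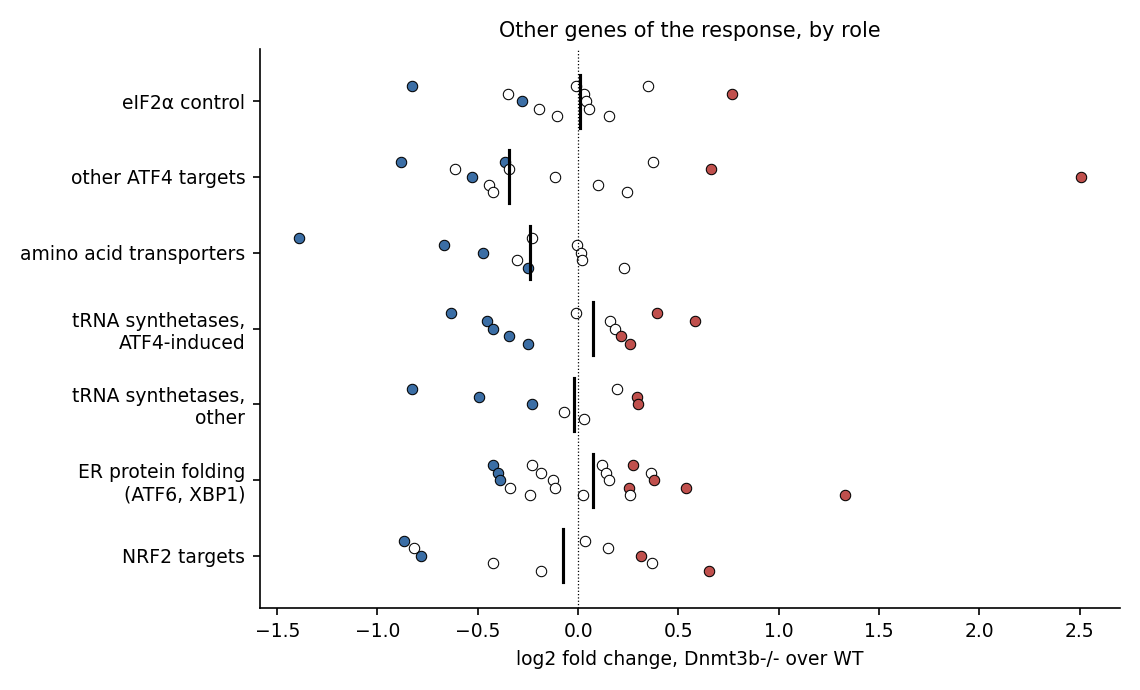
Log2 fold changes in Dnmt3b-/- over WT embryos (horizontal axis) of the tested genes of 7 lists, 1 point per gene, with genes that passed an adjusted p of 0.05 in red (higher) or blue (lower), the others open, and a bar at each list's median. Nupr1 at 2.51 and Dnajb9 at 1.33 lie farthest to the right and Slc7a3 at -1.39 farthest to the left, and each list holds points on both sides of 0.

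The neighbouring stress pathways were described in the same way. Of 20 ER chaperones and regulators under ATF6 and XBP1, 5 were higher and 3 lower (8 of 20 passed, near the 35.7% of all genes), with a median of 0.07. With the GC and length correction 4 were higher and 1 lower, with a median of -0.02. Dnajb9 (ERdj4), a co-chaperone of BiP, had 480.2, 635.0 and 528.3 normalized counts in WT embryos and 1198, 1284 and 1641 in mutants (log2 fold change 1.33 ± 0.16, SE, adjusted p = 0.000944, edgeR). Calr was at 0.54 (0.00169) and Hsp90b1, the most abundant of the list, at 0.38 (0.0148), while Hyou1 was at -0.43 (0.00839), Pdia6 at -0.40 (0.0105) and Creld2 at -0.39 (0.0393). Hspa5, the gene of BiP, was added after its values were seen and stood at 0.03 (adjusted p = 0.855, edgeR), with 53934 to 69032 normalized counts in WT embryos and 62758 to 65025 in mutants. Of 10 genes of the NRF2 antioxidant program, which shares Slc7a11 with ATF4, 2 were higher and 2 lower, again near the share of all genes. Gclc, the catalytic subunit of glutathione synthesis, was at 0.65 (0.00121) and G6pdx at 0.31 (0.0197), whereas the NRF2 inhibitor Keap1 was at -0.78 (0.00551) and Srxn1 at -0.87 (0.0233). Txnrd1, the most abundant of these, was at 0.03. Of 6 paralogues of the members, Atf2 (0.49) and Creb1 (0.50, the most abundant) were higher and the other 4 did not pass. With the GC and length correction Atf2 was at -0.02 (adjusted p = 0.87, edgeR) and Creb1 at 0.09 (0.353), so that the direction for Atf2 depends on that choice.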

How the data were processed

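Whole E8.5 embryos (3 WT, 3 Dnmt3b-/-) were measured by paired RNA-Seq of 75 bases on ribosomal RNA-depleted, stranded libraries. The authors aligned reads to mm10 with TopHat2 2.0.12 and assigned them to exons of RefSeq genes using HTSeq 0.6.0, and the raw counts were deposited. The deposited normalized signal is the count divided by a DESeq2 1.4.5 size factor, as made by the authors, and is not the value printed here. The normalized count printed here is the raw count divided by a factor proportional to the library total after TMM scaling. The log2 fold change and the adjusted p-value that the authors deposited hold their own comparison and were not used. The RefSeq release and strand setting are not given in the sources used here.

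Counts were scaled with TMM and tested with edgeR 4.0.16 (quasi-likelihood, R 4.3.3) in the 15114 genes that averaged 10 or more counts per embryo, with Benjamini-Hochberg adjustment over all of them. A fold change compares Dnmt3b-/- with WT. FPKM was computed from raw counts and RefSeq exon length. Depth was 41489332 to 58470286 counts, so 3 counts equal 2.38 to 3.50 normalized counts (counting error only). Nothing says that embryos of a genotype come from separate litters, so p-values measure the spread between these embryos. The correction for GC content and exon length removed a spline with 5 degrees of freedom for each from every library. Alternatives were no filter, a mean of at least 50 counts, DESeq2 size factors, total counts, DESeq2 1.42.0, limma-voom (limma 3.58.1), a replicate block, the GC correction and each embryo left out. The edgeR, limma-voom and DESeq2 fits were run on simulated counts with the same dispersion for all genes. The GC correction, the replicate block and the fits with an embryo left out were not tested in this way. The table's genes were matched to RefSeq annotation of GRCm38 for 99.2% of symbols. Ratios were tested with scipy 1.17.1, and tables and figures were made with Python 3.11.15, pandas 2.3.3, numpy 2.4.6 and matplotlib 3.10.9.

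The members and all lists were chosen with earlier results of these data known. Named are the 9 members and Dnmt3b and, of each other list, the genes with an adjusted p below 0.05, at most the 6 with the smallest, and the most abundant gene. One item is not reported here and was left out of the counts. The methylation libraries of the study were not analysed here.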

Additional observations from a re-analysis of the deposited data

How the results depend on the processing

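In edgeR, 320 of all genes were higher and 571 lower when both an adjusted p under 0.05 and a fold over 2 were asked for. The GC and length correction gave 304 higher and 134 lower, and scaling to total counts gave 246 higher and 710 lower, with the median over all genes at -0.11 in place of -0.03. Leaving out 1 embryo at a time gave 242 to 381 higher and 391 to 774 lower.

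Of the 9 members, 1 was higher and 3 lower at an adjusted p below 0.05. The number higher was 0 with total counts, the replicate block and the GC and length correction, and 0 to 1 without 1 embryo. The number lower was 1 with the GC and length correction and 1 to 4 without 1 embryo. With a fold above 2, the 1 lower member (Trib3) became 0 with a mean of at least 50 counts, which Trib3 and Chac1 do not reach, with the replicate block and with the GC and length correction. It became 2 in the DESeq2 test and limma-voom, and 0 to 2 without 1 embryo. Of the 103 genes of the 9 other pathway lists, 18 were higher and 27 lower at an adjusted p below 0.05 alone. Without 1 embryo these counts were 9 to 20 and 16 to 25. The cause of these shifts was not tested.

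Atf5 changed sign with the GC and length correction (0.51), and Ddit3 with total counts (-0.0089) and without Dnmt3b-/- embryo 2 (-0.12). Without 1 embryo Ddit3 ranged from -0.12 to 0.19.

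Embryos with the same number did not deviate together (correlations of -0.06, -0.15 and -0.01 for numbers 1, 2 and 3), so the numbers are not taken as pairs. With the number as a replicate block, 265 genes were higher and 516 lower, 0 members were higher and 2 lower (Atf4 and Phgdh), and 14 genes of the other lists were higher and 21 lower.

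With 3 embryos per genotype no exact test over embryos can go below p = 0.1. Trib3 and Chac1 had at most 63 raw counts in an embryo, and Chac1 had the largest standard error of the members (1.04 on the log2 scale), followed by Slc7a11 (0.54) and Trib3 (0.39). A Chac1 count of 0 does not show absence.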
